A study of Mus musculus with 6 samples.

Results

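The 43 genes described here encode the ligands, receptors, Smad proteins, inhibitors, co-repressors and target genes of bone morphogenetic protein (BMP) and transforming growth factor beta (TGF-beta) signalling. They were taken by symbol from a list of pathway genes that was drawn up with earlier results of these data known, and all 43 were among the 36291 genes counted. Of the 43, 34 passed the filter on low counts and were tested. Messenger RNA was sequenced from sorted fluorescent (eGFP+) cells of the E14.5 telencephalon of Swiss mice. The labels name the cells of both genotypes as targeted by Nkx2-1-iCre, a driver of the ventral forebrain where cortical interneurons are born, so the Cre and the reporter are shared. Each genotype, wild type (WT) and knockout (KO), had 3 libraries. The KO label names no gene, and the series title names Sip1, now called Zeb2. The labels give neither the deleted exon nor the number of embryos per library. Each library carries the number K77, K79 or K80, and each number occurs once in each genotype.

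BMP and TGF-beta ligands bind pairs of type I and type II serine-threonine kinase receptors. Type I receptors phosphorylate receptor-activated Smads, with Smad1, Smad5 and Smad9 serving BMP receptors and Smad2 and Smad3 serving TGF-beta and activin receptors, and these enter the nucleus with Smad4. Zeb2 was found as a protein that binds activated Smads and represses transcription at E-box sequences, and its older name, Sip1, stands for Smad-interacting protein. In the forebrain BMP signals are known for dorsal patterning, and the Id genes, classic BMP targets, encode inhibitors of basic helix-loop-helix transcription factors.

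Zeb2 was lower in each KO library. WT K77, K79 and K80 had 6468, 5350 and 8094 counts, and the KO libraries in that order 2856, 2759 and 3391. The log2 fold change, KO against WT as in all that follows, was -1.11 (SE 0.138, edgeR adjusted p = 0.00116). The 6 libraries held 8323531 to 11069437 gene counts. WT K79 stood apart in sex-linked genes, with 26109 Xist counts against 13 to 28 in the other 5 libraries and 0 to 3 counts for each of Ddx3y, Eif2s3y, Kdm5d and Uty against at least 310. It also had the WT level nearest to KO for Zeb2. For members, results are therefore given without it where that changes a call. Of 10 marker genes of the medial ganglionic eminence (MGE) lineage 3 rose and 1 fell by edgeR. Of all tested genes 3.64% rose and 2.62% fell. With the K number as a block 5 of the 10 were called, against 10.6% of all tested genes. The addition was Lhx8, higher by 0.65 on the log2 scale in that fit (edgeR adjusted p = 0.0098). Nkx2-1, Gad2 and Sox6 rose by 0.70, 0.56 and 0.35 on the log2 scale (adjusted p = 0.00301, 0.00124 and 0.0183) and Dlx5 fell, while Lhx6, at 932 to 1164 CPM in WT libraries and 1005 to 1264 in KO, differed by 0.05. Their summed level was 5162 to 5851 CPM in WT and 6025 to 6959 in KO, and its part in the results below was not tested. CPM is counts scaled to a common library size.

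Levels per kilobase of exon showed which parts of the pathway these cells transcribed. Among the 6 member ligands Tgfb3 was the highest in WT, at 16.0 ± 3.19 CPM per kb (SD, n = 3), above Tgfb2 at 2.42 ± 0.489 and Bmp7 at 0.940 ± 0.249. Of the wider list of ligands, Inha had 14.8 ± 0.194 CPM per kb in WT, within the range of the Tgfb3 libraries. Bmp2, Bmp4 and Tgfb1 each had at most 9 counts in any library. Among receptors Acvr1b (33.2 ± 0.475), Tgfbr1 (32.9 ± 2.44) and Acvr2a (27.8 ± 2.26) led in WT. Acvr1b and Tgfbr1 did not differ beyond their spread. The type II TGF-beta receptor gene Tgfbr2 stood at 0.137 ± 0.0541 CPM per kb, or 8 to 17 counts per library, and the co-receptor gene Tgfbr3 at 2 to 14 counts. For Smads the WT order was Smad4 (50.6 ± 3.07), Smad5 (46.8 ± 2.31), Smad1 (12.9 ± 0.608), Smad2 (11.3 ± 0.952) and Smad3 (7.52 ± 0.645). The libraries of Smad4 and Smad5 overlapped, and those of the other neighbours in this order did not. Smad9 had 3 to 6 counts per library. Exon lengths come from an annotation of a later genome build than the counts, so levels between genes are approximate. In sorted bulk RNA, fewer cells expressing a gene and less RNA per cell cannot be told apart.

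**Figure D1:**
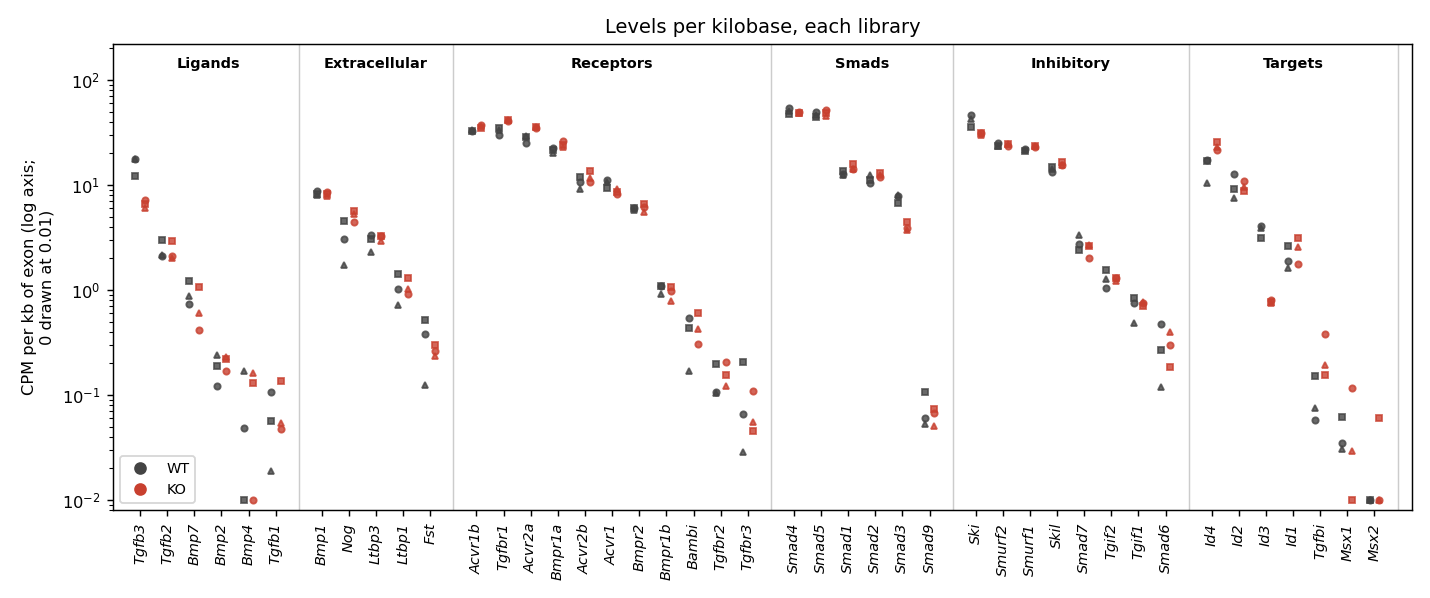
Level of each of the 43 genes in CPM per kb of merged exon (log axis, zeros drawn at 0.01) in the 3 WT (grey) and 3 KO (red) libraries, with circles for K77, squares for K79 and triangles for K80. Genes run by role and by WT level, and the ligand Tgfb3 and the target Id3 sit lower in all 3 KO libraries than in all 3 WT libraries.

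Of the 34 genes tested, 7 changed between genotypes by edgeR at an adjusted p under 0.05, which is 20.6% against 6.27% of all 13835 genes tested. Tgfb3, Smad3, Ski and Id3 were lower in KO and Acvr2a, Tgfbr1 and Id4 were higher, where 2.62% of all tested genes were lower and 3.64% higher. With the K number as a block, 8 were called against 10.6% of all genes, and the addition was Bmpr1a. The genotypes did not overlap in 13 of the 34 (38.2%), against 23.2% of all tested genes. The median log2 fold change of the 34 was 0.05, and that of all tested genes -0.01. DESeq2 and limma voom each called 7 of the 34. In the authors' deposited table, where 5.54% of genes with a p were called, 8 members were called, the same 7 and the BMP antagonist gene Nog. The 9 members not tested had few counts in every library: 0 to 4 for Bmp4, 4 to 9 for Bmp2, 1 to 7 for Tgfb1, 2 to 14 for Tgfbr3, 3 to 6 for Smad9, 4 to 14 for Smad6, 0 to 3 for Msx1, 0 to 2 for Msx2 and 2 to 12 for Tgfbi. These 9 were left out by the filter and have no test. Tgfbi lay above WT in each KO library in CPM, but WT K79 and KO K79 both had 6 counts. In the authors' deposited table it had a log2 fold change of 1.36 and an adjusted p of 0.322.

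**Figure D2:**
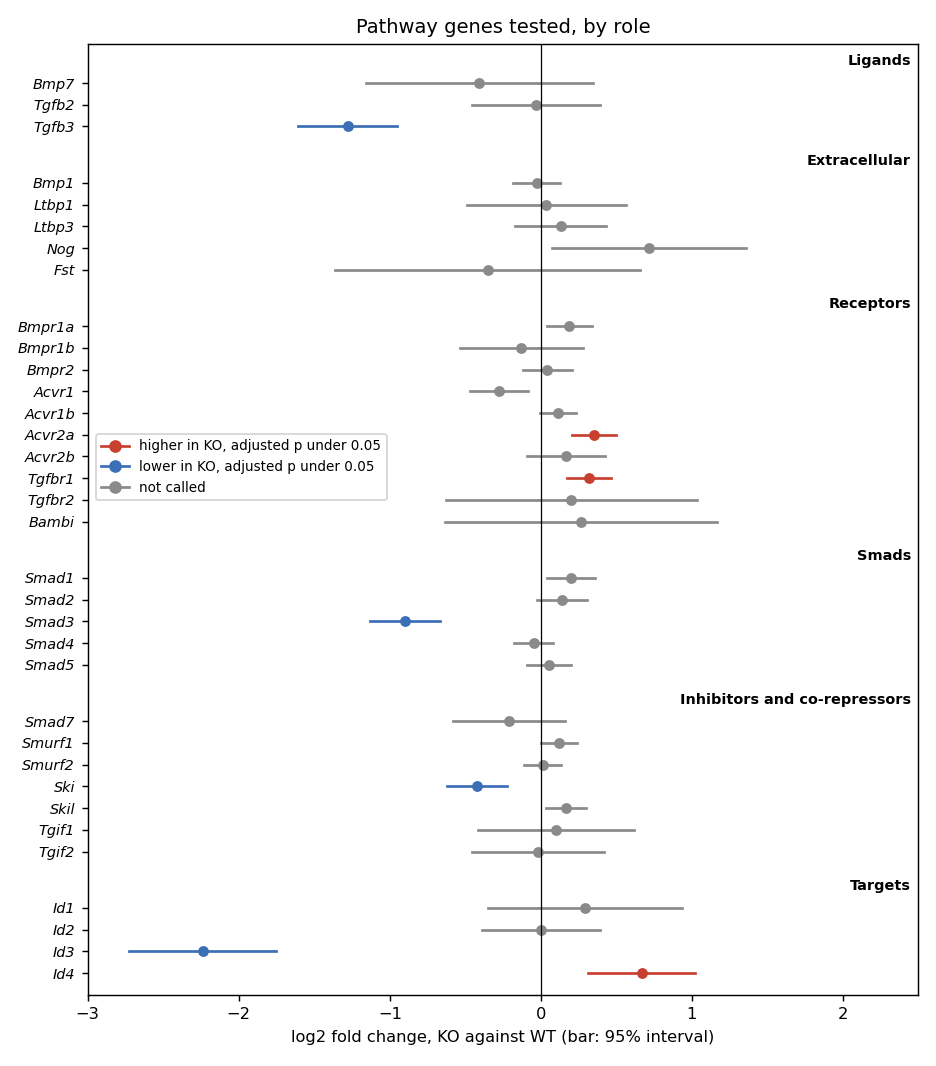
Log2 fold change of KO against WT (horizontal axis) with its 95% interval for the 34 tested genes, grouped by role, from the edgeR fit over all genes. Blue marks genes lower and red genes higher in KO at an adjusted p under 0.05, and grey marks the 27 genes not called. Id3 lies farthest from 0, at -2.24.

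The ligand Tgfb3 fell. It stood at 60.2, 41.6 and 60.4 CPM in WT K77, K79 and K80 and at 24.3, 22.4 and 20.3 CPM in KO K77, K79 and K80. Each KO library lay below each WT library, and WT K79 was the WT library nearest to KO. The mean went from 54.1 ± 10.8 to 22.3 ± 1.99 CPM, a 2.43-fold lower level (log2 change -1.28 ± 0.147 SE, edgeR adjusted p = 0.000762). Within K77, K79 and K80 the log2 ratios of CPM were -1.31, -0.89 and -1.57. Tgfb2, a paralogue that binds the same type I receptor, had 13.98 ± 2.83 CPM in WT against 13.7 ± 3.01 in KO, with a 95% interval for its log2 fold change of -0.46 to 0.39. As a share of the reads of both genes Tgfb3 had 83.2, 70.7 and 82.8% in WT K77, K79 and K80 and 66.7, 56.6 and 63.3% in KO. The shares did not overlap (two-sided exact permutation p = 0.1, the smallest that 3 against 3 allows). This pair, like the others compared below, was chosen after its values were seen, so the p-value adds no support. Within the 3 K numbers an exact sign-flip test gave p = 0.25, the smallest that 3 pairs allow, for this pair of genes and for the 4 others compared below. Bmp7, which signals through BMP and activin type II receptors, had 27 to 51 counts in WT and 14 to 44 in KO and was not called (log2 change -0.41 ± 0.337 SE, edgeR adjusted p = 0.599). In a later annotation 12.4% of the Tgfb3 exon bases are shared with antisense gene models, and whether the counting used strand was not stated in the labels.

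None of the 5 extracellular regulators tested was called by edgeR, DESeq2 or limma voom, and 1 had an unadjusted p under 0.05. That gene was Nog, which encodes the BMP antagonist noggin. Nog stood at 5.23, 7.76 and 2.94 CPM in WT K77, K79 and K80 and at 7.56, 9.56 and 8.96 CPM in KO. The groups overlapped, since WT K79 lay above KO K77. Its log2 change was 0.72 ± 0.287 (SE; edgeR adjusted p = 0.21), and 1.11 (adjusted p = 0.0319) without WT K79. In the authors' deposited table Nog had a log2 fold change of 0.71 and an adjusted p of 0.0349. Bmp1, a protease that cleaves the antagonist chordin, differed by -0.03 (95% interval -0.18 to 0.13). Ltbp1 and Ltbp3, which bind latent TGF-beta, differed by 0.04 and 0.13. Fst, which encodes the activin antagonist follistatin, rested on 6 to 25 counts per library and differed by -0.35 (95% interval -1.36 to 0.66).

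Both receptor genes that were called rose, by about 1.25 to 1.28 times. Acvr2a, a type II receptor for activins and some BMPs, stood at 144, 163 and 168 CPM in WT K77, K79 and K80 and at 198, 204 and 204 CPM in KO. Every KO library lay above every WT library, and the KO libraries lay close together. The log2 change was 0.35 ± 0.0655 (SE; edgeR adjusted p = 0.0104). Tgfbr1, the type I TGF-beta receptor, stood at 197.5, 229 and 218 CPM in WT and at 264, 269 and 271 CPM in KO, again without overlap, with a log2 change of 0.32 ± 0.0642 (SE; adjusted p = 0.0162). Acvr2a missed the threshold when KO K79 or KO K80 was left out (0.0589 at most), as it did without both K79 libraries (0.0588). Tgfbr1 missed it when WT K77, KO K79 or KO K80 was left out (up to 0.0858). In a later annotation 7.84% of the Acvr2a exon bases overlap the antisense gene Orc4.

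The other 8 receptor genes tested were not called. Bmpr1a, a type I BMP receptor, was at 142.5, 138 and 128 CPM in WT and 166, 154 and 146 CPM in KO, with no overlap and a log2 change of 0.19 ± 0.0672 (SE; edgeR adjusted p = 0.152, and 0.0427 with the replicate block). Of 14 alternatives, the block was the only 1 that called it. Acvr1, another type I receptor for BMPs, was the reverse, at 53.5, 45.5 and 52.0 CPM in WT and 39.5, 41.1 and 43.8 in KO. Its log2 change was -0.28 ± 0.0866 (SE; adjusted p = 0.103), and -0.35 (adjusted p = 0.0399) without WT K79. Acvr1b, a type I activin receptor, lay slightly above WT without overlap (0.11, adjusted p = 0.308). Bmpr2 (0.04), Acvr2b (0.17) and Bmpr1b (-0.13) overlapped between genotypes. Bambi, a pseudoreceptor that lacks the kinase domain, had 9 to 31 counts per library and differed by 0.26 (95% interval -0.64 to 1.16), and Tgfbr2 by 0.20 (95% interval -0.63 to 1.03).

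Among the Smads that carry the signal, Smad3 fell and the other 4 tested were not called. Smad3 stood at 43.2, 37.6 and 44.2 CPM in WT K77, K79 and K80 and at 21.5, 24.8 and 20.7 CPM in KO. The groups did not overlap, and K79 held both the lowest WT and the highest KO value. The mean went from 41.7 ± 3.58 to 22.4 ± 2.18 CPM, a 1.86-fold lower level (log2 change -0.90 ± 0.103 SE, edgeR adjusted p = 0.000778), with log2 ratios of -1.01, -0.60 and -1.09 within K77, K79 and K80. Smad2, which shares its receptors with Smad3, had 99.4 ± 8.38 CPM in WT and 109.5 ± 4.74 in KO (a log2 difference of 0.14, 95% interval -0.02 to 0.30). Smad3 therefore made up 27.6 to 32.1% of the reads of both genes in WT and 16.0 to 17.8% in KO. The 95% Wilson intervals of WT, lowest bound 25.4%, and of KO, highest bound 19.9%, were apart in every library (two-sided exact permutation p = 0.1, the smallest possible). Of the BMP Smads, Smad1 lay above WT in every KO library but was not called (0.20, SE 0.0705, adjusted p = 0.148) and Smad5 differed by 0.05 (95% interval -0.09 to 0.20). The common partner Smad4 differed by -0.05 (95% interval -0.18 to 0.08).

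The RefSeq promoter table (build GRCm38.p6) held 30 of the 43 genes. Windows of 250 bases before the start are shown for 3 of the called genes with an entry. These are the Smad that fell and the Id genes that moved in opposite directions. They carry the main results on signal carriers and targets. Capitals mark CAGAC (Smad binding), GGCGCC (BMP-responsive Smad site) and CACCT (the core of the Zeb2 E-box), on either strand. CACCT is also part of CACCTG, the longer E-box that was searched. Smad3 lies at chr9:63757995-63758244 on the minus strand, Id3 at chr4:136143572-136143821 on the plus strand and Id4 at chr13:48260866-48261115 on the plus strand, and each is written 5′ to 3′ on the strand of the gene.
Smad3: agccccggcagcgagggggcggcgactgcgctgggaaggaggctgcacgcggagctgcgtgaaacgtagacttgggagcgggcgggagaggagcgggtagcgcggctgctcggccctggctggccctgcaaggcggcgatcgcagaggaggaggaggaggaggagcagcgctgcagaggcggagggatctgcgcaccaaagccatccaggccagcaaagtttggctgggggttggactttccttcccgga
Id3: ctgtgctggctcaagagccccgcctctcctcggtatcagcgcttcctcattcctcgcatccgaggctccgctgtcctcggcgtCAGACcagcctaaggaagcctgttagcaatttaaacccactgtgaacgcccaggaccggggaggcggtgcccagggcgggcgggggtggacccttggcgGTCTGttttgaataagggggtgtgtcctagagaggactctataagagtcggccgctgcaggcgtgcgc
Id4: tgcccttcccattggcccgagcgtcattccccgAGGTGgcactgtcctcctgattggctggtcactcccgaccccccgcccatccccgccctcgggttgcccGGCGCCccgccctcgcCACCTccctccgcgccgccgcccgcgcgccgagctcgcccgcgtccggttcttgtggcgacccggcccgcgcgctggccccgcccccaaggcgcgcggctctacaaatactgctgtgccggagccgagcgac

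The Id3 window held CAGAC or its complement 2 times, with first bases 167 and 68 bases before the start, and no GGCGCC or CACCT. The Id4 window held GGCGCC once and CACCT or its complement 2 times, 217 and 132 bases before the start. The Smad3 window held none of the motifs, and no window of the 3 held CACCTG. The windows of the called genes Tgfbr1, Acvr2a and Ski, not shown, held no CACCT. The Ski window and 1 of the 2 Tgfbr1 windows held GGCGCC. The 3 windows shown therefore do not stand for the called genes. Of 40 windows of member genes, which belonged to 30 genes, 18 held CAGAC, 10 GGCGCC, 16 CACCT and 4 CACCTG. Across all 32851 windows of this length in the table, 42.2% held CAGAC, 9.59% GGCGCC, 46.0% CACCT and 17.2% CACCTG on either strand. The windows of the called genes with an entry were 52.8 to 87.6% G or C. The windows of all genes were not matched for this, so the difference in GGCGCC was not tested. A match is a description of letters and not a site.

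Of the inhibitory arm, the co-repressor gene Ski fell and the other 6 tested were not called. Ski, whose protein binds Smads and represses their targets, stood at 258, 196.5 and 237 CPM in WT K77, K79 and K80 and at 174, 174 and 167 CPM in KO. Each KO library lay below each WT library, and WT K79 was the nearest to KO. The level went from 230.5 ± 31.3 to 172 ± 3.90 CPM (log2 change -0.42 ± 0.0894 SE, edgeR adjusted p = 0.0201). This call was lost without any 1 library other than WT K79 (adjusted p up to 0.101), and held without WT K79 (-0.53, adjusted p = 0.000936). Its relative Skil lay the other way, at 130, 144 and 138 CPM in WT and 151, 160.5 and 152 CPM in KO, but was not called (0.17, SE 0.0595, adjusted p = 0.152). Smad7, an inhibitory Smad induced by the pathway, differed by -0.21 (95% interval -0.58 to 0.16). The ubiquitin ligase genes Smurf1 and Smurf2 differed by 0.12 and 0.01, and the homeobox co-repressor genes Tgif1 and Tgif2, at 29 to 62 counts per library, by 0.10 and -0.02.

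The 4 Id genes did not move together. Id3 stood at 7.29, 5.65 and 6.92 CPM in WT K77, K79 and K80 and at 1.44, 1.38 and 1.36 CPM in KO. These levels rest on 67, 59 and 73 counts in WT and 12, 14 and 15 in KO. The KO libraries were alike and all far below WT, a 4.72-fold lower level (log2 fold change -2.24, 95% interval -2.73 to -1.75, edgeR adjusted p = 0.000288). Id4 moved up, from 66.2, 64.7 and 40.5 CPM in WT to 83.8, 98.1 and 89.4 CPM in KO. Its groups did not overlap, and WT K80 was the lowest library. The log2 change was 0.67 ± 0.158 (SE; adjusted p = 0.0355). Id4 lost its call without each KO library in turn (adjusted p up to 0.154) or without both K79 libraries (0.108), and within K77, K79 and K80 its log2 ratios were 0.34, 0.60 and 1.14.

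The other 2 Id genes overlapped between genotypes. Id2 stood at 30.7, 22.2 and 18.2 CPM in WT and 26.5, 21.3 and 23.3 in KO (a log2 difference of 0.00, 95% interval -0.39 to 0.39). Id1, at 17 to 37 counts per library, differed by 0.29 (95% interval -0.35 to 0.94). Id3 made up 9.93, 8.04 and 14.6% of the reads of Id3 and Id4 together in WT K77, K79 and K80 and 1.69, 1.39 and 1.496% in KO. Id4 made up 68.3 to 74.4% of the reads of Id4 and Id2 in WT and 76.0 to 82.2% in KO. Neither share overlapped between genotypes (two-sided exact permutation p = 0.1 for each). Id3 and Id4 each separated the genotypes, in opposite directions. The Id3 share of that pair therefore had to separate too, and its test adds no support. In all, 5 gene pairs were compared this way and the Benjamini-Hochberg value was 0.1 for each. The homeobox targets Msx1 and Msx2 were at or near 0 counts. Tgfbi, a secreted protein gene induced by TGF-beta, had 2, 6 and 3 counts in WT and 12, 6 and 8 in KO, too few for the test.

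**Figure D3:**
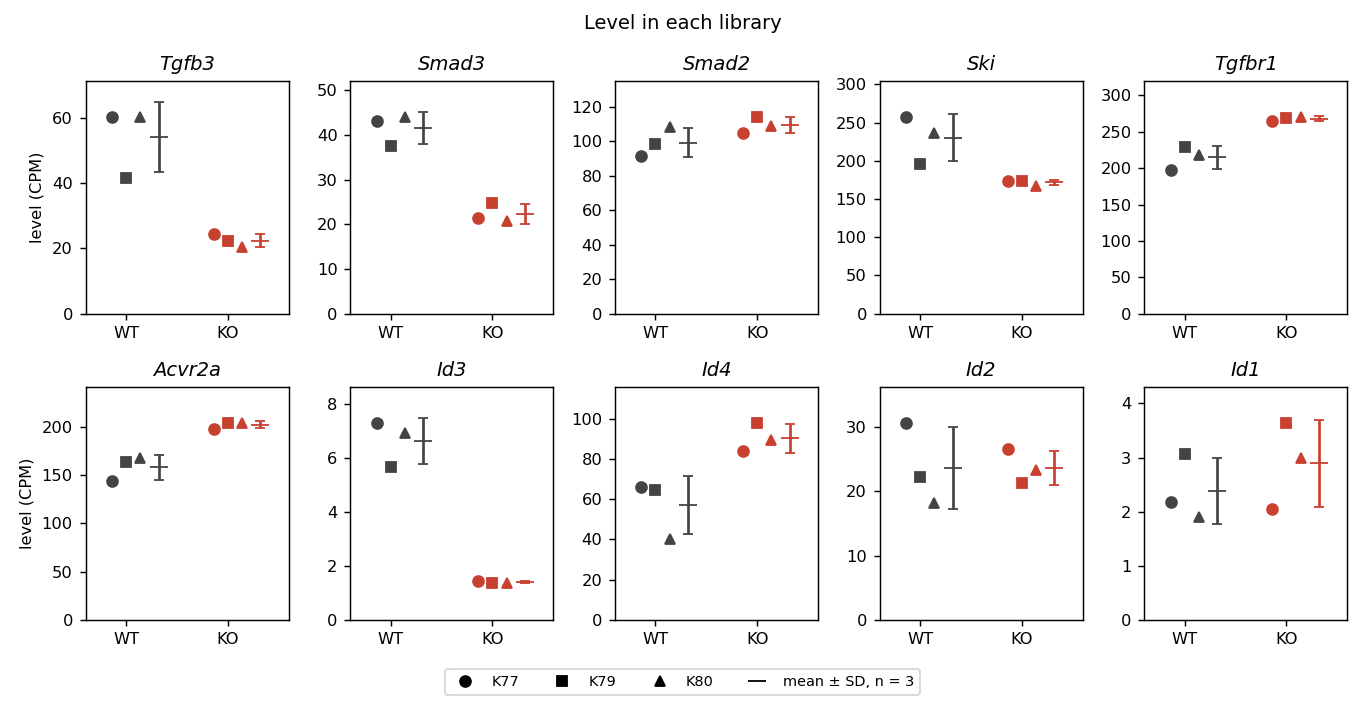
Level in CPM (vertical axis, from 0) of 10 genes in each WT (grey) and KO (red) library, with the symbol giving the K number and the bar beside each group its mean ± SD (n = 3). Tgfb3, Smad3, Ski and Id3 lie lower in all KO libraries, Tgfbr1, Acvr2a and Id4 lie higher, and Smad2, Id1 and Id2 overlap.

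**Figure D4:**
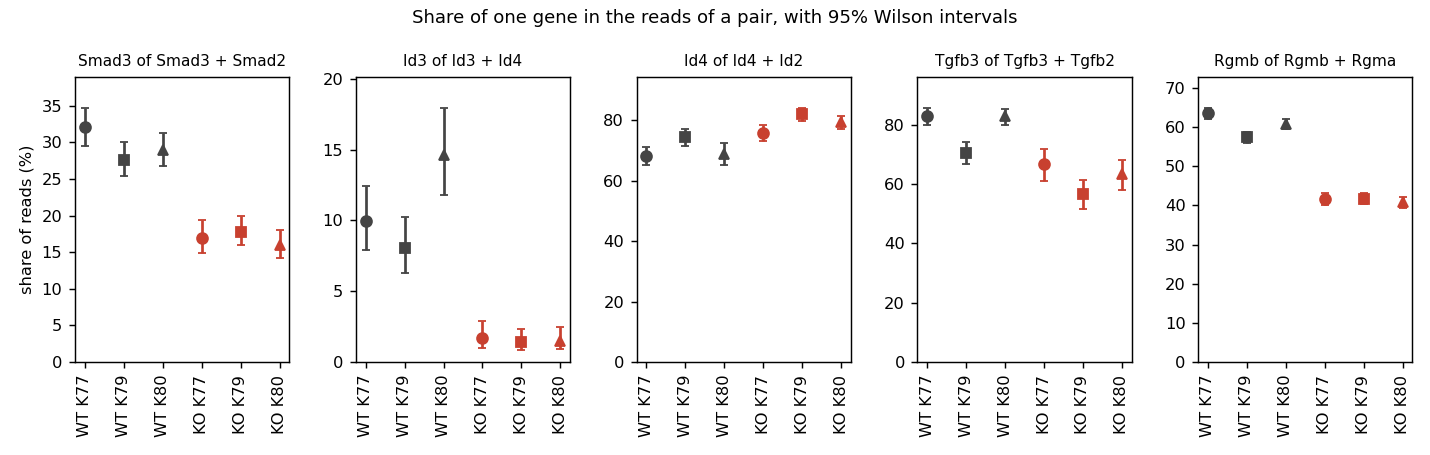
Share of reads (%) that the first gene takes of a pair in each library, with 95% Wilson intervals that cover counting error only. The Smad3 share lies at 27.6 to 32.1% in WT and 16.0 to 17.8% in KO, and the Rgmb share at 57.4 to 63.6% in WT and 40.8 to 41.7% in KO.

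A wider list of the pathway, also drawn up with earlier results of these data known, held 62 further tested genes. Of these, 5 rose and 6 fell by edgeR (17.7%, against 6.27% of all tested genes). With the block 8 rose and 7 fell, where 10.6% of all tested genes were called. The same shares of all tested genes apply beside the counts of the smaller lists below. All 5 tested ligand genes of that list, Bmp3, Gdf10, Gdf11, Inha and Inhbb, went uncalled by edgeR, DESeq2 and limma voom, with 0 at an unadjusted p under 0.05. Among 21 antagonists and matrix or processing genes 1 rose and 3 fell. Thbs1, whose thrombospondin product can activate latent TGF-beta, fell from 179 ± 49.3 to 22.4 ± 2.09 CPM (log2 change -2.999 ± 0.185 SE, edgeR adjusted p = 4.66e-05). Fbn2, a fibrillin that binds latent complexes and BMPs, fell by 1.26 on the log2 scale, Kcp, a secreted BMP modulator, fell by 0.67, and Tll2, a protease of the Bmp1 family, rose by 0.78. Those 3 calls were each lost in some of the fits with 1 library left out, though the direction of change held in all 6. Why the calls were lost was not tested. Fbn2 lost its call when WT K80, KO K79 or KO K80 was dropped (0.105 at most), Tll2 when WT K77 or either of KO K79 and KO K80 was dropped (up to 0.0978) and Kcp without any 1 library but KO K77 (up to 0.196). All 3 were lost without both K79 libraries, and Kcp with DESeq2 (adjusted p = 0.0669). The block added the antagonist or modulator genes Crim1 (0.74), Fstl4 (1.32), Twsg1 (0.19) and Htra1 (-0.74). Crim1, with an edgeR adjusted p of 0.0572 without the block, was also called by DESeq2 (0.00281), without the filter (0.00187), without WT K79 (0.0191) and without KO K77 (0.0145), and in the authors' deposited table (4.32e-06). Fstl4 was also called without the filter (0.0257) and without KO K77 (0.0448), and Htra1 without the filter (0.0374).

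Among 8 tested co-receptor genes 2 rose and 2 fell. The BMP co-receptor genes of the repulsive guidance family went opposite ways. Rgma rose from 188.5 ± 10.7 to 271 ± 8.66 CPM (log2 change 0.53 ± 0.0607 SE, edgeR adjusted p = 0.000802). Rgmb dropped from 290 ± 21.9 to 192 ± 7.67 CPM (-0.60, SE 0.0681, adjusted p = 0.00076). Rgmb took 60.6 ± 3.11% of the reads of both genes in WT and 41.4 ± 0.515% in KO (two-sided exact permutation p = 0.1). With Rgma higher and Rgmb lower in every KO library, the share had to separate, so its test adds no support. The shared receptor gene Neo1 rose by 0.33 (adjusted p = 0.0373) and lost its call without WT K77, WT K80, KO K79 or KO K80 (up to 0.161). Ror2, a receptor tyrosine kinase gene best known for Wnt5a and placed in this list for its reported link to BMP receptors, fell by 2.10 (adjusted p = 0.000347).

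Of 19 tested intracellular regulators 2 rose and 0 fell. Zfp423, a zinc finger partner of BMP Smads, rose from 38.7 ± 12.1 to 70.6 ± 6.03 CPM (log2 change 0.87 ± 0.178 SE, edgeR adjusted p = 0.0178), which missed the threshold when WT K77 or either of KO K79 and KO K80 was dropped (up to 0.0892). Zeb1, the Zeb2 paralogue, rose by 0.32 (adjusted p = 0.0281), which missed it when WT K77, WT K80, KO K77 or KO K79 was dropped, or both K79 libraries (up to 0.128). The Zeb2 co-repressor genes Ctbp1 and Ctbp2 differed by -0.05 and 0.04. Of 9 tested response genes Dlx5 alone was called, lower by 0.45 on the log2 scale (adjusted p = 0.0263, and up to 0.13 without WT K77, WT K80, KO K79 or KO K80), and it is also a gene of the interneuron lineage. The other 8 were not called and went both ways, with Klf10 (-0.23), Hes1 (-0.61), Junb (-0.70), Ctgf (-0.69) and Fn1 (-0.11) below 0 and Col1a1 (0.68), Cyr61 (0.23) and Hey1 (0.07) above.

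Id proteins act by binding basic helix-loop-helix proteins, and genes of such proteins were examined beside the Id genes. The E protein genes Tcf4 and Tcf12 fell by 0.46 and 0.35 on the log2 scale (edgeR adjusted p = 0.0107 and 0.0492), while the third E protein gene, Tcf3, differed by 0.06 (adjusted p = 0.77). Tcf4 stood at 1233, 1023 and 1308 CPM in WT and 895, 854 and 850 CPM in KO. Olig1 fell by 1.81 (adjusted p = 8.69e-05), and Olig2 (-0.40, adjusted p = 0.0763), Neurog2 (-0.37) and Neurod1 (0.07) were not called. Olig1 and Olig2 also belong to the oligodendrocyte precursor markers below, and Neurog2 to the cortical glutamatergic markers. The part of such cells in these results was not tested. Olig2 was called with the replicate block (0.0148), by DESeq2 (0.0415), without the filter (0.0147) and in the authors' deposited table (0.0137), and Neurog2 without WT K80 (-0.69, adjusted p = 0.00792). Tcf4 missed the threshold when KO K79 or KO K80 was dropped (0.0685 at most), and Tcf12 when any library other than WT K79 was dropped (0.207 at most) or with limma voom (0.051).

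Id3, Tgfb3 and their relatives are also expressed in cells outside the interneuron lineage, so marker genes of such cells are given beside them. Of 11 tested endothelial genes none was called by edgeR, DESeq2 or limma voom, 0 had an unadjusted p under 0.05, and their summed level was 20.4 to 37.6 CPM in WT and 19.7 to 32.6 in KO. Of 8 pericyte and meningeal genes 1 fell, Cspg4, which oligodendrocyte precursors also express, and the summed level was 26.6 to 49.4 CPM in WT and 25.3 to 44.9 in KO. Col1a2, of the same list, lay higher in each KO library (21, 17 and 6 counts in WT, 51, 26 and 30 in KO), with a log2 change of 1.33 (edgeR adjusted p = 0.154, and 0.0221 with the replicate block). The 12 radial glia genes gave 0 edgeR calls, with 3 at an unadjusted p under 0.05 and 1 call each by DESeq2 and limma voom, and summed to 1464 to 1747 CPM in WT and 1415 to 1640 in KO. With the replicate block 2 of them were called by edgeR, Slc1a3 higher (log2 change 0.63, adjusted p = 0.00651) and Vim lower (-0.22, adjusted p = 0.0218). Cortical glutamatergic markers gave 0 calls of 9 by each tool, with 1 at an unadjusted p under 0.05, and summed to 761 to 1041 and 707 to 891 CPM. Most of that sum was Bcl11b, at 496 to 577 CPM in WT and 475 to 587 in KO. Tbr1, of the same list, varied more between WT libraries. It stood at 99.7, 73.2 and 46.5 CPM in WT K77, K79 and K80 and at 66.6, 47.0 and 49.6 in KO. Of 5 tested microglial and blood genes 0 were called by any of the tools and 0 had an unadjusted p under 0.05, with sums of 20.6 to 33.0 and 12.1 to 25.7 CPM. Hba-a1 and Hba-a2 were at 0 in all libraries. The other globin genes Hbb-b1 (57 to 135 counts) and Hbb-b2 (25 to 59) and the blood gene Alas2 (15 to 25) had reads in each, so those zeros do not show blood RNA to be absent. With the replicate block 1 of the 5 tested genes was called, the embryonic globin gene Hbb-y (log2 change -1.04, adjusted p = 0.0217), at 51, 80 and 27 counts in WT and 30, 34 and 10 in KO. Oligodendrocyte precursor genes moved with genotype: 5 of 7 tested fell, among them Pdgfra (from 41.0 ± 1.46 to 8.52 ± 2.54 CPM) and Sox10 (0 counts in KO K80). The list summed to 457 to 586 CPM in WT and 368 to 462 in KO. Most of that sum was Ptprz1, at 330 to 438 CPM in WT and 317 to 403 in KO. Ptprz1 was not called (log2 change -0.09), so the sum understates the fall of the other genes. Single markers had these counts per library: the endothelial genes Pecam1 (21 to 43), Cdh5 (20 to 43) and Kdr (50 to 123), the pericyte gene Pdgfrb (49 to 86), the progenitor gene Nes (1871 to 3656) and the cortical glutamatergic genes Neurod6 (705 to 1275) and Tbr1 (477 to 916). Id3 itself had 12 to 73. The part of these genes in the lower Id3, Tgfb3 and Smad3 levels was not tested.

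**Figure D5:**
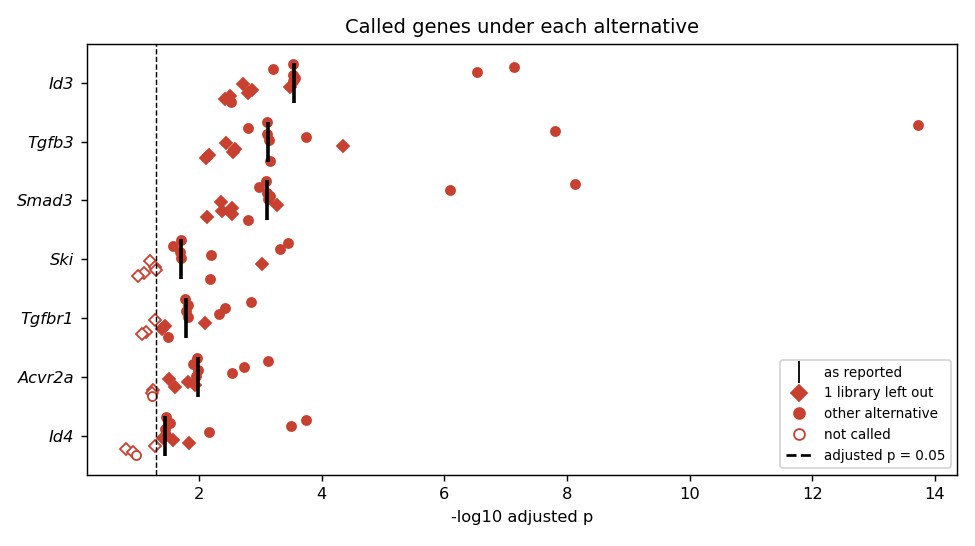
The -log10 adjusted p (horizontal axis) of the 7 called genes as reported (black bar), with each of 6 libraries left out (diamonds) and under 8 other alternatives (circles), open symbols marking lost calls left of the dashed line at 0.05. Id3, Tgfb3 and Smad3 stay to the right of it under all 14 alternatives, and Ski, Tgfbr1, Acvr2a and Id4 each cross it.

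Id3, Tgfb3 and Smad3 kept their calls under all 14 alternatives, with log2 fold changes of -2.34 to -2.17, -1.44 to -1.19 and -0.98 to -0.84 over the 6 libraries left out in turn. Without KO K79 or KO K80 these 3 were the only members called, with 0 higher by edgeR, against 9 called without WT K79.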

How the data were processed

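The authors deposited unnormalized whole counts of reads for each gene symbol, and their table of the whole series matched the files of single libraries in each of 36291 rows. Build mm9 and the tools TopHat 1.2.0, HTSeq 0.5.3p3 and DESeq 1.2.2 come from the submitters' processing notes, without roles. No annotation or strand setting was stated there. The authors' deposited comparison table holds p-values, a ratio of group means and the log2 of that ratio, per the file headers. It names its groups A and B, and was read as KO over WT because its sign matched the edgeR fit in all 777 shared calls. Reads assigned to no feature (19.75 to 21.77% of a library) or to several (1.94 to 1.99%) stayed out.

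Counts were tested in R 4.3.3 with edgeR 4.0.16 (TMM, filterByExpr with a minimum count of 10, quasi-likelihood test, Benjamini-Hochberg over 13835 genes, threshold 0.05). The fit was tested on simulated data. The protein comparison planned for the Id genes was not run. SE is the log2 fold change over the square root of F, and intervals are 95%. Alternatives were RLE factors, DESeq2 1.42.0, limma 3.58.1 voom, a block for the K number, no filter, a filter of 1 CPM in 3 libraries, dropped globin, mitochondrial and Xist rows, and each library left out. Leaving out both K79 libraries and the sign-flip test of shares within K numbers were added after seeing the data.

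Same-numbered libraries deviated together from their genotype means (correlation 0.256, 0.197 and 0.175 for K77, K79 and K80, all above the limit of 0.1). The K number was therefore taken to pair them, but only the fit with the block used this pairing. Edge tests, SEs and intervals given without mention of the block ignored it, as did the fits with libraries left out. The labels do not say whether libraries come from separate embryos. By its Xist counts (26109, against 22 in WT K77 and 16 in WT K80), WT K79 was not the same material as the other WT libraries. The p-values then reflect only library-to-library spread, which may be technical. Members and lists were chosen with earlier results of these data known, and the gene pairs after their values were seen. Named are all members, Zeb2, the called genes of the wider lists, the Id partners (apart from a result that is not reported here) and cell type markers, with Gdf and response genes that were not called chosen after their values were seen. Wilson intervals cover counting error only.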

Additional observations from a re-analysis of the deposited data

How the results depend on the processing

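The 7 called members kept their direction under all 14 alternatives, and of the 27 members not called 11 changed sign under at least 1. The count of called members was 7 with RLE factors, DESeq2, limma voom, either other filter and dropped rows, 8 with the replicate block, 5 without both K79 libraries and 3 to 9 with 1 library left out. Over all genes the 867 calls became 1463 with the replicate block and 445 to 1044 with 1 library left out (WT K77 left out 528, KO K79 left out 498, KO K80 left out 445). The 11 calls in the wider pathway list became 7 without both K79 libraries and 4 to 12 with 1 library left out (WT K77 left out 5, WT K80 left out 6, KO K79 left out 4, KO K80 left out 5). Among members the paired fit changed the call of Bmpr1a and of no other gene. Zeb2 differed by -1.26 to -0.99 on the log2 scale with 1 library left out. The cause of these shifts was not tested, beyond there being fewer libraries in the fits that leave some out. Searching the plus strand alone lowered the share of promoter windows with CAGAC from 42.2 to 23.9%. Depth limits Id3 to 12 to 15 counts in each KO library, and the 9 members below the filter could not be compared.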
